A study of Mus musculus with 5 samples.

Results

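Autophagy is the process by which a cell wraps part of its cytoplasm in a double membrane, the autophagosome, and delivers it to lysosomes for breakdown. A protein kinase complex starts the process, a lipid kinase complex marks the membrane, and lipid transfer proteins make it grow. A conjugation system then attaches small Atg8 proteins to the membrane, and receptors tie cargo to them. In adipocytes autophagy is known for its part in fat cell differentiation, in mitochondrial turnover and in the response to starvation. The 38 genes described here form the core of this machinery. They were taken by symbol from the deposited transcript table and summed per gene identifier, which gave 38 of 24531 genes and 55 of 36779 transcripts. All 38 passed the low-count filter and were tested among 14492 genes. Transcript use was tested among 3997 genes.

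Messenger RNA was measured in primary adipocytes of epididymal fat, in 2 libraries labelled Prmt1 FKO and 3 libraries labelled Prmt1 f/f. FKO mice lack Prmt1 in adipocytes, per the labels, and Prmt1 encodes the main enzyme of asymmetric arginine dimethylation. The f/f mice carry the floxed allele, by the sample titles, and the genotype field calls them WT. Both groups were C57BL/6N, and the design text gives both 12 weeks of HFD, a high-fat diet. The sources used here name no Cre driver, age or sex. The labels do not say that each library came from its own animal, so the tests rest on library-to-library spread that may be technical.

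The libraries held between 43580154 and 57016997 estimated counts. The targeted gene, Prmt1, had 21.0 and 19.3 CPM in FKO, against 34.1, 29.4 and 32.3 CPM in f/f (log2 fold change -0.66, edgeR adjusted p = 0.0171). That call ended without FKO replicate 1 (edgeR adjusted p = 0.115) and without FKO replicate 2 (0.161), and the sources used here do not name the exons removed. CPM are counts scaled to a common library size, here with TMM factors (trimmed mean of M-values). Adipocyte markers were abundant, and 3 of 8 were higher in FKO and none was lower. Their sum was 61619 to 65749 CPM in FKO and 44223 to 45489 CPM in f/f. Much of that difference lay in Lpl (means of 20782 CPM in FKO and 11129 CPM in f/f) and Cidec (9373 and 5098 CPM). Adipoq, Plin1, Lipe and Lep overlapped between the groups, and the mean of Lep was lower in FKO (1183 and 1953 CPM). Markers of other cells were lower in FKO in 9 of 10 cases for macrophages (383 to 524 CPM in FKO, 891 to 1633 CPM in f/f). All 8 mesothelial markers tested were lower (14.6 to 23.1 CPM in FKO, 50.0 to 99.9 CPM in f/f). Of 9 progenitor and fibroblast markers 4 were lower (343 to 363 CPM in FKO, 630 to 895 CPM in f/f). Of 5 mural markers 1, Cspg4, was higher and 3 were lower (415 to 420 CPM in FKO, 253 to 449 CPM in f/f). In FKO most of that sum was Cspg4, with 285 and 288 CPM, against 43.9, 69.2 and 32.5 CPM in f/f. None of 6 endothelial markers was called (384 to 410 CPM in FKO, 341 to 468 CPM in f/f). Lymphocyte markers were nearly absent (0.499 to 1.27 CPM in FKO, 0.288 to 1.62 CPM in f/f). Of the epididymal markers Lcn5, Lcn8, Cst8 and Adam28 were at 0 in every library, and Crisp1 was at 0 in FKO and between 0.357 and 6.28 CPM in f/f. Of the muscle markers Myh4 was at 0, and Ckm was at 0 except for 0.034 CPM in f/f replicate 2. Mb was called higher in FKO at a low level, with means of 1.01 CPM in FKO and 0.314 CPM in f/f. The sum was 111 to 134 CPM in FKO and 63.0 to 140 CPM in f/f. Nearly all of it was Acta1, which was not called (133 and 110 CPM in FKO, 95.8, 62.6 and 140 CPM in f/f). The part of this difference in cell makeup in the autophagy results was not tested. In bulk samples fewer cells of a type and less RNA per cell cannot be told apart.

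Of the 38 autophagy genes, 7 were higher in FKO adipocytes and none was lower by edgeR's quasi-likelihood test. They are 4 receptors that bind ubiquitinated cargo, Sqstm1, Optn, Tax1bp1 and Nbr1, and 3 genes of the conjugation system, Atg7, Atg16l1 and Atg12. Sqstm1 was 2.23-fold higher and the other 6 were between 1.41-fold and 1.78-fold higher. The initiation kinase, the lipid kinase, lipid transfer, Atg4, Atg8 and mitophagy receptor groups held no called gene. Across all genes tested 25.4% were called, 11.9% higher and 13.4% lower. With TMM factors the members' share of calls in either direction, 18.4%, thus lay below the background, and their share of rises lay above it. The share of rises depended on the scaling. With upper-quartile factors 4 of the 38 members were called higher, against 1299 of 14492 genes. With library size alone 2 were, against 1030 genes.

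Before adjustment 14 members were higher and 4 were lower at p below 0.05, where 18.6% and 21.6% of all genes were. DESeq2 called 12 members higher and 1 lower, where it called 16% and 17.6% of all genes. The libraries of the 2 groups did not overlap for 18 members with FKO above f/f and for 5 with FKO below. Over all genes these shares were 28.6% and 30.5%. The median log2 fold change of the members was 0.13, against -0.047 over all genes, and 28 of 38 were positive, against 46.7% of all genes. The median of all genes depends on the scaling, and was -0.17 with upper-quartile factors and -0.27 with library size alone. On the log2(FPKM + pseudocount) scale (FPKM, fragments relative to the length of a transcript and the size of its library) it was -0.24 with a pseudocount of 0.1 and -0.15 with 1. The members' own median turned negative with library size alone (-0.086) and on both FPKM scales (-0.082 and -0.079). The 14 members with log2 fold changes between -0.14 and 0.14 were called in none of 15 alternative analyses, and 13 of them changed sign in at least 1, so no direction is read for them. Of all calls, 47.1% were higher in FKO, against 35.0%, 26.1%, 26.9% and 28.8% in the 4 other scalings, in the order given.

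**Figure D1:**
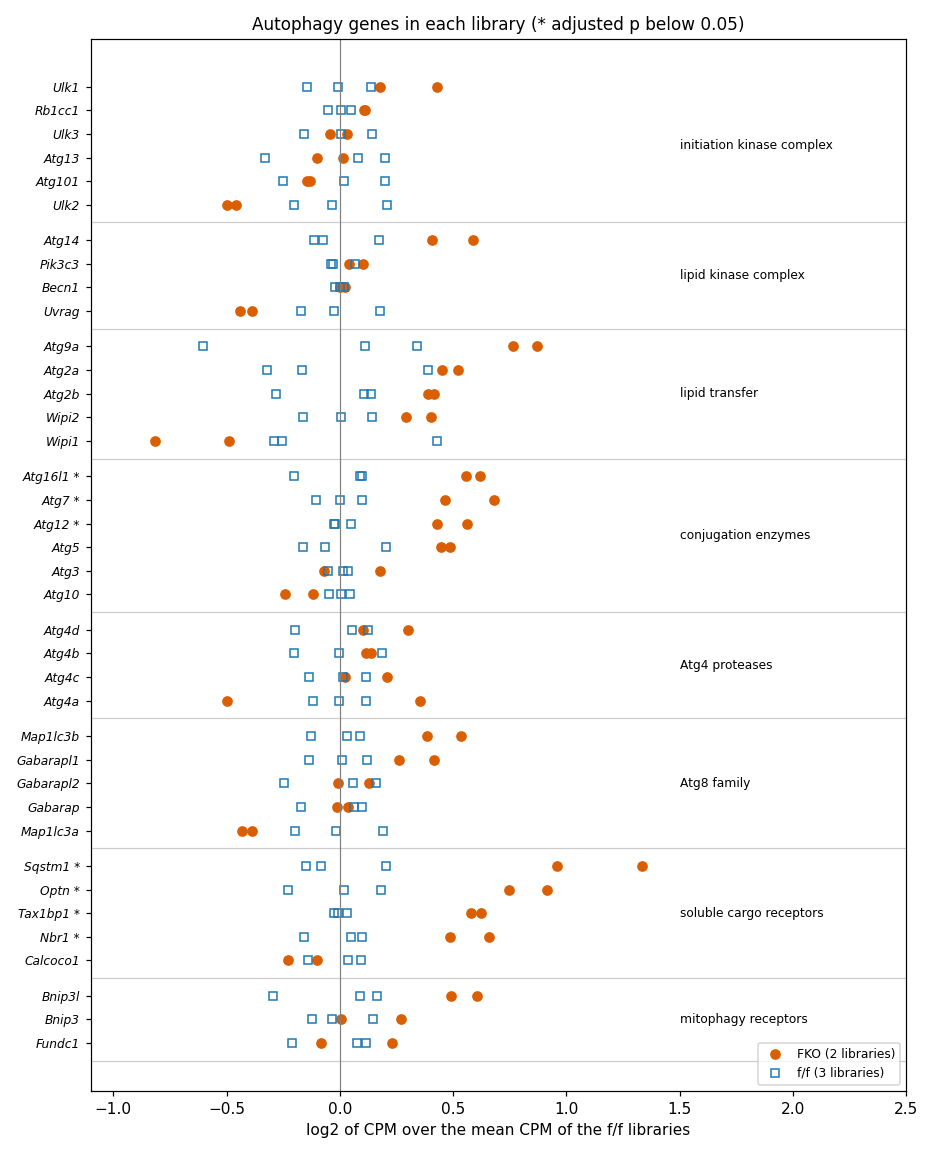
Each row is an autophagy gene, grouped by step, and the horizontal axis gives the log2 of its CPM over the mean of the f/f libraries. Filled circles are the 2 FKO libraries and open squares the 3 f/f libraries; both Sqstm1 circles lie farthest to the right and Wipi1 holds the leftmost circle.

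The called genes lay in 2 groups, the conjugation enzymes and the soluble cargo receptors. The other groups held 3 to 6 genes each, where 11.9% of all genes were called higher. No call in so small a group is near that share, so the absence of calls does not set those groups apart. DESeq2 did call Ulk2, Atg14, Atg9a, Map1lc3b and Bnip3l, which belong to those other groups. Their medians are given without a test. The replicate SD of the median, relative to all genes, was 0.27 for lipid transfer, 0.16 for mitophagy receptors and 0.11 for Atg8. It was 0.10 for Atg4, 0.068 for initiation, 0.051 for cargo receptors, 0.050 for conjugation and 0.0073 for the lipid kinase. The median log2 fold change was 0.60 for the 5 soluble cargo receptors, 0.48 for the 6 conjugation enzymes and 0.40 for the 5 lipid transfer and membrane supply genes. It was 0.14 for the 3 mitophagy receptors, 0.12 for the 4 Atg4 proteases and 0.061 for the 5 Atg8 genes. For the 4 lipid kinase genes it was 0.041, and for the 6 initiation genes it was -0.025. The summed CPM of the cargo receptors was 2143 and 2514 in FKO, against 1205, 1204 and 1340 in f/f. The ratio of the group means was 1.86, and both FKO sums lay above all f/f sums. Most of this sum was Sqstm1, with a mean of 1487 of 2328 CPM in FKO and 666 of 1250 CPM in f/f. The conjugation enzymes summed to 382 and 407 CPM in FKO, against 297, 297 and 278 CPM in f/f, a ratio of 1.36. The sums of the other groups had ratios between 0.933 for initiation and 1.29 for lipid transfer.

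**Figure D2:**
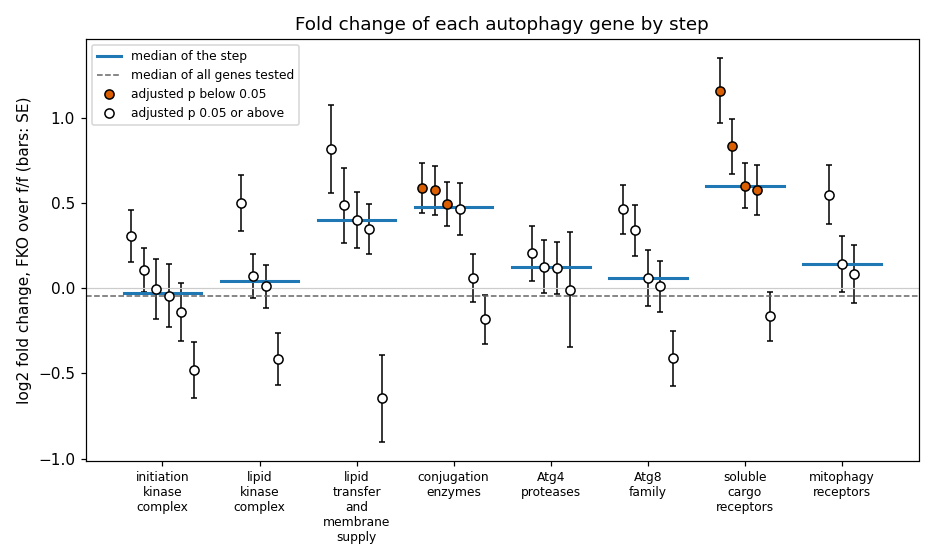
Points give the log2 fold change of each gene, FKO over f/f, with bars of 1 SE, by step. Filled points passed the adjusted p of 0.05, thick lines are step medians, and the dashed line is the median of all genes at -0.047; the called points lie in 2 groups, conjugation enzymes and soluble cargo receptors.

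The initiation complex, which receives signals from nutrient sensors, held no called gene. Its kinases Ulk2 and Ulk1 had log2 fold changes of opposite sign, and neither passed the test. Ulk2, which encodes a kinase of the ULK1 family, had 85.1 and 82.7 CPM in FKO, against 114, 135.2 and 101.7 CPM in f/f. Both FKO libraries lay below every f/f library, with a log2 fold change of -0.48 (SE 0.16, edgeR adjusted p = 0.0715). Ulk1, the kinase best known for starting autophagy, had 69.2 and 58.2 CPM in FKO, against 51.2, 56.7 and 46.6 CPM in f/f. Its FKO libraries lay above the f/f libraries, with a log2 fold change of 0.31 (SE 0.15, edgeR adjusted p = 0.183). Rb1cc1 (the scaffold FIP200), Atg13, Atg101 and Ulk3 had log2 fold changes between -0.14 and 0.11. Ulk2 was called lower in 7 of 15 alternatives, among them upper-quartile factors (edgeR adjusted p = 0.0276) and DESeq2 (0.0350), over a range of 0.0142 to 0.320.

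The lipid kinase complex makes phosphatidylinositol 3-phosphate on the growing membrane. Its shared parts, the kinase Pik3c3 and the scaffold Becn1, had log2 fold changes of 0.072 and 0.010. Atg14, the subunit that directs the complex to autophagosome formation, had 17.8 and 15.7 CPM in FKO, against 13.4, 11.3 and 10.96 CPM in f/f. The groups did not overlap, and the log2 fold change was 0.50 (SE 0.16, edgeR adjusted p = 0.0612). Uvrag, the subunit that takes the place of Atg14 in endosomal forms of the complex, had 27.0 and 28.0 CPM in FKO, against 32.6, 41.4 and 35.9 CPM in f/f. The order of the groups was the opposite, with a log2 fold change of -0.41 (SE 0.15, edgeR adjusted p = 0.0887). Atg14 was called higher with DESeq2 and without f/f replicate 1, over a range of adjusted p of 0.0315 to 0.360. Uvrag was called lower with library size alone, on both FPKM scales and with upper-quartile factors, over a range of 0.0249 to 0.371.

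Lipid transfer and membrane supply had a median of 0.40, yet none of its 5 genes was called. Atg9a, the membrane scramblase carried on vesicles to the forming autophagosome, had 59.5 and 55.3 CPM in FKO, against 35.2, 41.2 and 21.4 CPM in f/f. The f/f libraries spread nearly as widely as the groups were apart, and the log2 fold change of 0.82 (SE 0.26) had an edgeR adjusted p of 0.0590. Atg2a and Atg2b, which bridge membranes and pass lipids between them, had log2 fold changes of 0.49 and 0.40. The FKO libraries were above the f/f libraries for both, as for Wipi2 at 0.35, the protein that brings Atg16l1 to the membrane. Wipi1, a related binder of phosphatidylinositol 3-phosphate, had 23.4 and 18.6 CPM in FKO, against 27.5, 44.2 and 26.8 CPM in f/f. It was the single gene of the group with FKO below f/f (log2 fold change -0.64, SE 0.26, edgeR adjusted p = 0.105). Atg9a was called in 4 of 15 alternatives, among them the DESeq2 test (adjusted p = 0.0163) and the fits without f/f replicate 2 (edgeR 0.0426) and without f/f replicate 3 (edgeR 0.0340), and Atg2a was called without f/f replicate 2 (edgeR 0.0258). Over all alternatives the adjusted p ranged from 0.0163 to 0.230 for Atg9a, from 0.0258 to 0.407 for Atg2a and from 0.0377 to 0.417 for Wipi1.

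Of the 6 conjugation enzymes 3 rose. Atg7, the E1-like enzyme that activates both Atg12 and the Atg8 proteins, had 113 and 131 CPM in FKO, against 81.7, 87.5 and 76.0 CPM in f/f. Its mean was 122 ± 12.9 CPM in FKO (SD, n = 2) and 81.7 ± 5.73 CPM in f/f (SD, n = 3), and the log2 fold change was 0.57 (SE 0.14, edgeR adjusted p = 0.0280). Atg16l1, which forms the complex that decides where Atg8 proteins are attached, had 64.3 and 66.9 CPM in FKO, against 46.4, 46.7 and 37.9 CPM in f/f. The difference of 0.59 (SE 0.15, log2 fold change, edgeR adjusted p = 0.0293) was larger than the spread within either group. Atg12, the ubiquitin-like protein joined to Atg5, had 104 and 114 CPM in FKO, against 76.0, 79.7 and 75.7 CPM in f/f (log2 fold change 0.49, SE 0.13, edgeR adjusted p = 0.0331). In each of the 3 genes both FKO libraries lay above all f/f libraries.

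Atg5, the partner of Atg12, stood at 0.46 on the log2 scale and missed the threshold (edgeR adjusted p = 0.0666). The E2-like enzymes were lower still, Atg3 at 0.058 and Atg10 at -0.18 (log2 fold change), so the genes called were the E1 and parts of the Atg12-Atg5-Atg16l1 complex. The table places Atg7 at mm10 chromosome 6, 114643097 to 114860614, Atg16l1 at chromosome 1, 87756011 to 87792428, and Atg12 at chromosome 18, 46732417 to 46741579. The calls of Atg7 and Atg12 ended with upper-quartile factors (edgeR adjusted p = 0.0511 and 0.0756), and all 3 ended with library size alone, on both FPKM scales, without FKO replicate 1 (edgeR adjusted p = 0.115, 0.150 and 0.162 for Atg7, Atg16l1 and Atg12) and without FKO replicate 2 (0.242, 0.186 and 0.260). The Atg12 call also ended without f/f replicate 1 (0.0538) and without f/f replicate 2 (0.0535), and over all alternatives the adjusted p of the 3 genes reached down to 0.00151, 0.00260 and 0.00146.

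The Atg4 proteases, which trim Atg8 proteins before attachment and release them afterwards, differed little. Atg4d had 20.05 and 17.5 CPM in FKO, against 16.9, 17.8 and 14.2 CPM in f/f, and the groups overlapped (log2 fold change 0.21, edgeR adjusted p = 0.380). Its sign turned negative with library size alone and on both FPKM scales. The log2 fold changes of Atg4b, Atg4c and Atg4a were between -0.0077 and 0.13. The Atg4a row of the table is uncertain, since it lies at mm10 chromosome 3, 103643953 to 103646068, where RefSeq has the pseudogene Atg4a-ps, while RefSeq places Atg4a on chromosome X. The other 37 members overlapped the RefSeq locus of the same name. Atg4d shares 1381 bases with Kri1, a gene at 20.1 CPM in FKO and 18.7 CPM in f/f, and reads there cannot be assigned without strand. The genes that overlap Atg16l1, Atg4a, Atg5, Becn1 and Gabarapl1 in the table had at most 1.16 CPM in FKO and 0.564 CPM in f/f.

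The Atg8 family holds the ubiquitin-like proteins that coat the autophagosome, and none of its 5 genes was called. Map1lc3b, which encodes the LC3B used to count autophagosomes, had 337 and 375 CPM in FKO, against 264, 236 and 275 CPM in f/f. Both FKO libraries were above the f/f libraries, with a log2 fold change of 0.46 (SE 0.15, edgeR adjusted p = 0.0567). Map1lc3a, encoding LC3A, had 125 and 121 CPM in FKO, against 143, 162 and 186 CPM in f/f. Here both FKO libraries were below, with a log2 fold change of -0.41 (SE 0.16, edgeR adjusted p = 0.0999). The log2 fold change was 0.34 for Gabarapl1, 0.061 for Gabarapl2 and 0.011 for Gabarap. Map1lc3b was called by DESeq2 alone (range of adjusted p 0.00944 to 0.336), and Map1lc3a was called lower with library size alone and on both FPKM scales (0.0363 to 0.384).

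Of the 5 soluble cargo receptors 4 rose, and this group held the largest fold change among the members. Sqstm1, encoding p62, which gathers ubiquitinated proteins and is itself degraded with them, had 1295 and 1679 CPM in FKO, against 629, 601 and 768 CPM in f/f. Its mean was 1487 ± 272 CPM in FKO (SD, n = 2) and 666 ± 89.2 CPM in f/f (SD, n = 3), and the log2 fold change was 1.16 (SE 0.19, edgeR adjusted p = 0.00782). The lower FKO library was still above the highest f/f library. Optn, the receptor optineurin, had 176 and 156 CPM in FKO, against 79.6, 106 and 94.3 CPM in f/f (log2 fold change 0.83, SE 0.16, edgeR adjusted p = 0.0133). Tax1bp1, a receptor for protein aggregates and bacteria, had 374 and 363 CPM in FKO, against 248, 241 and 239 CPM in f/f. The libraries of each group lay close together, and the log2 fold change was 0.60 (SE 0.13, edgeR adjusted p = 0.0182). Nbr1, which works with p62 in aggregates, had 202 and 227 CPM in FKO, against 154, 149 and 129 CPM in f/f (log2 fold change 0.57, SE 0.15, edgeR adjusted p = 0.0305). Calcoco1, known as a receptor for the endoplasmic reticulum and Golgi, overlapped between groups (log2 fold change -0.16, edgeR adjusted p = 0.429).

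The receptors' loci in the table are mm10 chromosome 11, 50200152 to 50210820 for Sqstm1, chromosome 2, 5020642 to 5063938 for Optn, chromosome 6, 52713729 to 52766779 for Tax1bp1, and chromosome 11, 101552107 to 101581951 for Nbr1. The adipocyte markers Cidec, Lpl and Pnpla2 were also higher in FKO, with log2 fold changes of 0.88, 0.90 and 0.93. The other 5 markers of that list were not called, with Adipoq, Plin1 and Fabp4 at 0.23, 0.32 and 0.19, Lipe at -0.012 and Lep at -0.72. The Sqstm1 call ended without FKO replicate 2 (edgeR adjusted p = 0.0667), and those of Optn, Tax1bp1 and Nbr1 ended without FKO replicate 1 (0.118, 0.160 and 0.136) and without FKO replicate 2 (0.0688, 0.127 and 0.231). The Tax1bp1 call also ended with library size alone (0.0689), and that of Nbr1 in 6 further alternatives, among them upper-quartile factors (0.0542) and without f/f replicate 2 (0.0523). Over all alternatives the adjusted p reached down to 1.68e-07, 4.83e-05, 8.81e-06 and 0.00183 for Sqstm1, Optn, Tax1bp1 and Nbr1.

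The promoter windows of the 4 receptors called higher are shown. Whether these genes vary together or share regulation was not tested. Each runs from 250 bases before to 50 bases from an annotated start, 5′ to 3′ on the gene's strand, from RefSeq on GRCm38.p6. Capitals mark the GC box core (GGGCGG or its complement CCGCCC) and, in Sqstm1, the TATA box core (TATAAA). The windows are chr11:50210771-50211070 on the minus strand for Sqstm1, chr2:5064068-5064367 on the minus strand for Optn, chr6:52713479-52713778 on the plus strand for Tax1bp1 and chr11:101552404-101552703 on the plus strand for Nbr1. The Optn start lies 179 bases from that of the deposited table, and the others coincide with one of its transcript starts.
Sqstm1: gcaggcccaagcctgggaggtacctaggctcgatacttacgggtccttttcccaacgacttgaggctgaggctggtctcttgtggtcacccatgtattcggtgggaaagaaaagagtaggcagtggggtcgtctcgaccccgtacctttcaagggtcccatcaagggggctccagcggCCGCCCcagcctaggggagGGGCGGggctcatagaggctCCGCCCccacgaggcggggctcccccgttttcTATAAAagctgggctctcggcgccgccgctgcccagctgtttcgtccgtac
Optn: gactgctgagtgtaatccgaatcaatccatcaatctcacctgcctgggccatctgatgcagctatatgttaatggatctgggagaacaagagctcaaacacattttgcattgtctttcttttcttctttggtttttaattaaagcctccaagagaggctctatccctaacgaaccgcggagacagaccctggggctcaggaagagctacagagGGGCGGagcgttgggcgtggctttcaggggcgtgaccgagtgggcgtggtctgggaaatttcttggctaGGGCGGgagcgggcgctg
Tax1bp1: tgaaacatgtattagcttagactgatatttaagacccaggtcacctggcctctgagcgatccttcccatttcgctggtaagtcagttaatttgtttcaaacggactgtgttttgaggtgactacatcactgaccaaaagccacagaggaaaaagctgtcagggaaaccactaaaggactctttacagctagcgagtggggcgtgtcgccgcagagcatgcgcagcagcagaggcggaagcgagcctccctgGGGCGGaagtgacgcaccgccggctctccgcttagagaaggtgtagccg
Nbr1: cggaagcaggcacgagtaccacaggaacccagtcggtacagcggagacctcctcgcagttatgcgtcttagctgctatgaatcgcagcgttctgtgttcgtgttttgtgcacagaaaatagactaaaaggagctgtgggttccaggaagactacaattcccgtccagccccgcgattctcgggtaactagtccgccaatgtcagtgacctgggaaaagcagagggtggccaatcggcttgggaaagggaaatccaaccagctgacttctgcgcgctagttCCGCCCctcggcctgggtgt
The 4 windows differ in GC content, at 63.3% in Sqstm1, 52.7% in Optn, 53.0% in Tax1bp1 and 55.7% in Nbr1, and the median over 32851 windows of 27025 genes was 52.7%. In the windows shown, Sqstm1 holds 3 GC box cores, Optn 2, and Tax1bp1 and Nbr1 1 each. The cores of Tax1bp1 and Nbr1 and 1 of those of Optn lie past the annotated start. The TATA box core of Sqstm1 spans it. Nbr1 has another window, chr11:101551857-101552156, and so has Tax1bp1, chr6:52713915-52714214, and neither holds a GC box core.

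A window was found for 31 of the 38 members, some with several starts, and 6 motifs were searched on both strands. The GC box core was in a window of 23 members, where 35.7% of all windows hold it, and the TATA box core was in 2 members, Sqstm1 and Atg4a, against 13.6%. The E-box core CACGTG, bound by TFEB and TFE3 among many others, was in 5 members, Atg14, Atg3, Atg5, Atg7 and Bnip3, against 7.15% of windows. The longer CLEAR palindrome, which is that core with GT before it and AC after it, was in 0 members, against 0.326%. The antioxidant response element core TGACNNNGC was in 4 members, Atg13, Map1lc3b, Tax1bp1 and Ulk2, against 12.4%. In Tax1bp1 it lies in a window of another start. The FOXO core GTAAACA was in 0 members, against 3.65%. A member with several windows has more chances of a match, and a match is a description of letters.

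The mitophagy receptors sit in the outer mitochondrial membrane. Bnip3l, encoding NIX, had 243 and 224 CPM in FKO, against 179, 170 and 130 CPM in f/f. The groups did not overlap, and the log2 fold change was 0.55 (SE 0.17, edgeR adjusted p = 0.0578). Bnip3 and Fundc1 had log2 fold changes of 0.14 and 0.083, with overlapping groups. Bnip3l was called by DESeq2 and in none of the other 14 alternatives (range of adjusted p 0.0161 to 0.298).

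Levels were compared between genes in FPKM, which is per length. In FKO Sqstm1 stood first at 574 and 764 FPKM, above Bnip3 at 319 and 393 FPKM. In f/f Bnip3 (404, 356 and 364 FPKM) and Sqstm1 (320, 306 and 424 FPKM) did not differ beyond their spread. The next places in FKO went to Map1lc3b (187 FPKM), Gabarap (184), Gabarapl1 (162), Map1lc3a (106) and Tax1bp1 (100.8), of which Map1lc3b and Gabarap overlapped. In f/f they went to Gabarap (213 FPKM), Map1lc3a (165), Map1lc3b (158), Gabarapl1 (150) and Tax1bp1 (77.4), where each Atg8 gene overlapped the next in this order. Becn1 had 46.2 FPKM in FKO and 53.5 FPKM in f/f. FPKM hold no TMM factors, so they are used here to rank genes within a group. With TMM factors Becn1 had means of 104.4 CPM in FKO and 103.7 CPM in f/f. The enzymes and kinases were rarer. The means of the 6 initiation genes, for example, were at or below 14.6 FPKM in FKO and 21.0 FPKM in f/f. The lowest were Atg14 (4.36 FPKM in FKO, 3.59 in f/f), Ulk3 (2.67 in FKO, 3.14 in f/f) and the uncertain Atg4a row (0.858 in FKO, 1.01 in f/f).

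**Figure D3:**
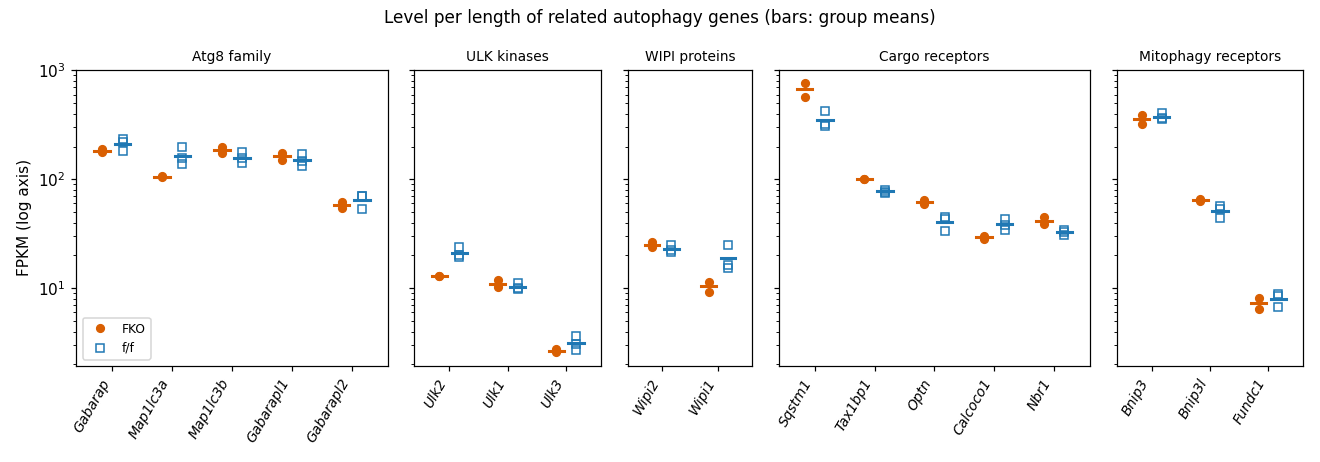
FPKM of related autophagy genes on a log axis, with 2 FKO libraries as filled circles to the left of 3 f/f libraries as open squares, and bars at group means. Sqstm1 is the highest FKO value. Within the Atg8, ULK and WIPI panels both FKO libraries lie below every f/f library for Map1lc3a, Ulk2 and Wipi1. The FKO means of Gabarap, Gabarapl2 and Ulk3 are lower too, with overlapping libraries. FPKM hold no TMM factors, and genes as a whole lean lower in FKO on this scale. Their median log2 fold change was -0.24 with a pseudocount of 0.1 and -0.15 with 1.

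Related genes were also set against each other within their families. Ratios between 2 genes of a library do not depend on how libraries are scaled. The pairs were singled out after their values were seen, so they are given without a test. The FPKM ratio of Ulk1 to Ulk2 was 0.910 and 0.786 in FKO, against 0.502, 0.469 and 0.512 in f/f. That of Map1lc3b to Map1lc3a was 1.65 and 1.89 in FKO, against 1.13, 0.893 and 0.901 in f/f. That of Wipi2 to Wipi1 was 2.09 and 2.83 in FKO, against 1.46, 0.997 and 1.33 in f/f. In all 3 families the FKO libraries lay above the f/f libraries. The ratio of Atg14 to Uvrag, the alternative partners of Becn1, was 0.657 and 0.559 in FKO, against 0.409, 0.271 and 0.304 in f/f.

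As shares of the summed FPKM of the Atg8 family, Map1lc3a held 15.2% ± 1.02 in FKO (SD, n = 2) and 21.9% ± 2.56 in f/f (SD, n = 3). Map1lc3b held 26.8% ± 0.750 in FKO and 21.1% ± 0.270 in f/f. Gabarapl2, at 8.30% in FKO and 8.62% in f/f, was the single family member with overlapping shares. In CPM, 28.6% of all genes did not overlap with FKO above f/f, and 30.5% with FKO below. Shares of 1 sum are also tied to each other. The share of Gabarap was lower in FKO, while its CPM overlapped between the groups (log2 fold change 0.011). Of the soluble receptors' FPKM, Sqstm1 held 71.0% and 76.7% in FKO, against 64.2%, 61.6% and 68.2% in f/f. Calcoco1 held 3.75% and 2.86% in FKO, against 6.81%, 7.73% and 6.96% in f/f. The mean shares of Tax1bp1 (11.3% in FKO, 14.5% in f/f) and Nbr1 (4.65% and 6.12%) were lower in FKO too, without overlap. Both genes were called higher, so a lower share here is not a lower level. The share of Optn overlapped. A larger share of Sqstm1 leaves less of the sum for the other receptors. The shares of the 2 Atg2 genes and of all 4 Atg4 genes overlapped between the groups.

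The table also resolves transcripts, and 10 members had at least 2, of which 9 could be tested for a change in transcript proportions. None was called by edgeR's diffSpliceDGE, where 5.68% of genes were. At an unadjusted p below 0.05 there were 4, Atg7, Atg4c, Atg16l1 and Nbr1, where 18.9% of all genes were. Of these, Atg7, Atg16l1 and Nbr1 also rose as genes. For Atg7 the transcript NM_028835 held 94.4% and 91.2% of the counts in FKO, against 82.3%, 84.0% and 72.2% in f/f (edgeR adjusted p = 0.0655). NM_001253718 held most of the rest, and the groups did not overlap for either. For Atg16l1, NM_001205392 held 47.3% and 44.5% in FKO, against 35.2%, 25.0% and 23.7% in f/f (edgeR adjusted p = 0.249). NM_029846 held 40.2% and 46.9% in FKO, against 59.8%, 69.0% and 59.7% in f/f, and was still the largest form in FKO replicate 2. For Nbr1, NM_001252222 held 42.1% and 36.6% in FKO, against 29.8%, 27.9% and 20.8% in f/f (edgeR adjusted p = 0.256). For Atg4c, NM_175029 held 38.7% and 27.0% in FKO, against 15.8%, 21.4% and 14.7% in f/f (edgeR adjusted p = 0.193). Sqstm1 kept its main form, NM_011018, at 76.5% and 74.2% in FKO, against 76.7%, 78.5% and 76.0% in f/f (edgeR adjusted p = 0.940). Without f/f replicate 3, Atg9a alone was called for transcript use (edgeR adjusted p = 0.0139, against 0.803 with it).

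**Figure D4:**
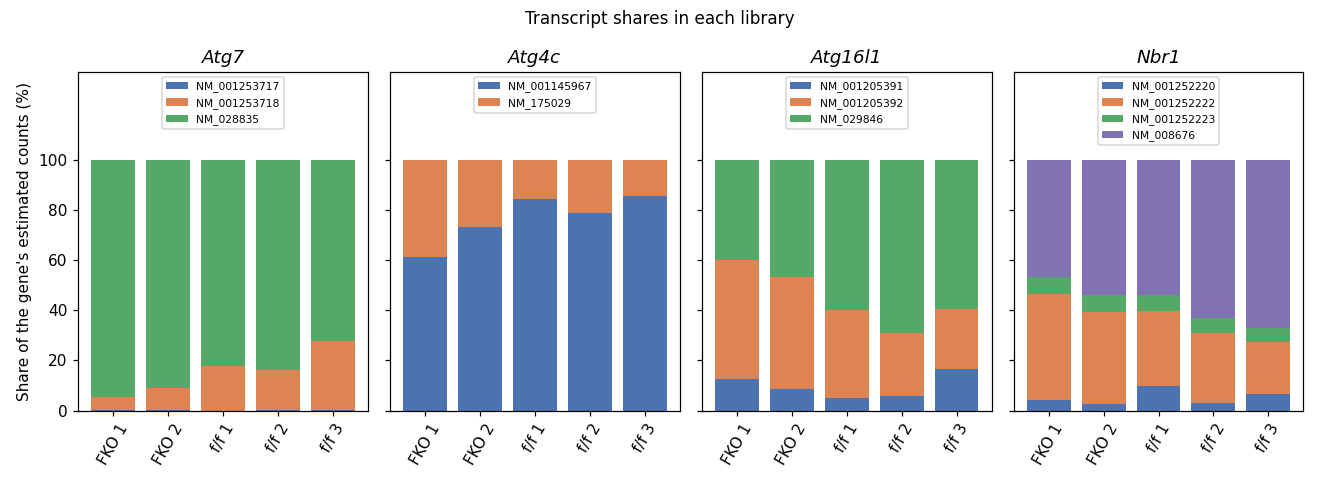
Stacked bars give the percentage of a gene's estimated counts assigned to each RefSeq transcript in each library, FKO to the left of f/f, for the 4 members with an unadjusted p below 0.05. The NM_028835 part of Atg7 and the NM_001205392 part of Atg16l1 are larger in both FKO libraries than in any f/f library.

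Around the core machinery, 55 of 57 listed genes of autophagy regulation, membrane traffic and other receptors were in the table, and all 55 were tested. The other 2 are newer symbols of Fam134b and Park2, which the table holds. Of these 55 genes 14 were higher and 4 were lower in FKO, read against 11.9% and 13.4% of all genes, with a median log2 fold change of 0.24. Among the 6 transcription factors Tfe3, an activator of lysosomal and autophagy genes, had 53.8 and 53.1 CPM in FKO, against 38.4, 38.8 and 36.0 CPM in f/f, and rose (log2 fold change 0.50, edgeR adjusted p = 0.0294). Zkscan3, a zinc finger protein described as a repressor of autophagy genes, rose as well (log2 fold change 1.99, edgeR adjusted p = 0.0406). Its f/f libraries were spread widely, with 79.6 and 68.5 CPM in FKO, against 14.5, 34.5 and 6.93 CPM in f/f. The log2 fold change of Foxo1, -0.49, missed the threshold (edgeR adjusted p = 0.0944). The other 3 transcription factors were not called. The Tfe3 call ended in 8 of 15 alternatives, among them upper-quartile factors (edgeR adjusted p = 0.0626), library size alone (0.129) and both FPKM scales (limma, 0.113 and 0.114). It also ended when f/f replicate 2, FKO replicate 1 or FKO replicate 2 was left out (edgeR adjusted p = 0.0503, 0.198 and 0.185), and that of Zkscan3 when f/f replicate 1 or either FKO library was (0.104, 0.144 and 0.105).

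Bcl2, which binds Becn1 and restrains it, fell to 9.58 and 13.3 CPM in FKO, against 31.1, 36.5 and 28.2 CPM in f/f (log2 fold change -1.48, edgeR adjusted p = 0.00426). It was the single called gene of 7 lipid kinase partners, and Nrbf2, a subunit of the Atg14 form, was at 0.53 (edgeR adjusted p = 0.0744). Of 10 scramblases, WIPI relatives and phagophore factors 3 rose and none fell. They were Tmem41b, a scramblase of the endoplasmic reticulum (log2 fold change 0.71, edgeR adjusted p = 0.0152), Wdr45, a partner of Atg2 (0.64, edgeR adjusted p = 0.0228), and Mtmr3, a phosphatase of phosphatidylinositol 3-phosphate (0.55, edgeR adjusted p = 0.0274). These 3 calls ended without FKO replicate 1 (edgeR adjusted p = 0.106, 0.0831 and 0.234 in the same order) and without FKO replicate 2 (0.114, 0.211 and 0.133), and that of Wdr45 also ended without f/f replicate 2 (0.0548). The calls of Wdr45 and Mtmr3 ended as well with library size alone (edgeR adjusted p = 0.0875 and 0.0933) and on both FPKM scales (limma, 0.0768 to 0.0829), that of Mtmr3 with upper-quartile factors (0.0510), and that of Tmem41b on the log2(FPKM + 1) scale (limma, 0.0566).

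Of 14 genes for fusion with lysosomes 2 rose. Plekhm1, an adaptor between Rab7, the HOPS tether and Atg8 proteins, had 177 and 206 CPM in FKO, against 80.7, 85.3 and 70.3 CPM in f/f. Its log2 fold change of 1.28 (SE 0.15, edgeR adjusted p = 0.00277) stood above that of every core member. Vps11, a HOPS subunit, had a log2 fold change of 0.71 (edgeR adjusted p = 0.0194) and Vps41, another, one of 0.48 (edgeR adjusted p = 0.0513). Of 13 other receptors 5 rose and 2 fell. Tex264 (log2 fold change 0.70, edgeR adjusted p = 0.0104) and Rtn3 (0.78, edgeR adjusted p = 0.0142), receptors for the endoplasmic reticulum, were higher. So was Phb2, a mitophagy receptor of the inner membrane (0.71, edgeR adjusted p = 0.0117). The other 4 called receptors were chosen after their values were seen. By log2 fold change Ncoa4, the ferritin receptor, was at 1.28 and Fyco1, a transport adaptor, at 0.76 (edgeR adjusted p = 0.0158 and 0.04995). Fam134b, a further receptor for the endoplasmic reticulum, was at -1.72 and Stbd1, which binds glycogen, at -1.13 (edgeR adjusted p = 0.0164 and 0.0228). Fam134b was scarce, with 0.667 and 1.09 CPM in FKO, against 3.22, 2.28 and 3.19 CPM in f/f. Its log2 fold change was -0.64 on the log2(FPKM + 1) scale. Fyco1 was called in 3 of 15 alternatives. The calls of Vps11 and of all 7 receptors ended without FKO replicate 1 and without FKO replicate 2, with edgeR adjusted p between 0.0509 for Fam134b and 0.242 for Fyco1. That of Stbd1 also ended without f/f replicate 2 (0.0594), and that of Fyco1 without f/f replicate 1 or 3 (0.0935 and 0.0516).

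Park2, encoding the ubiquitin ligase Parkin, fell to 2.36 and 2.495 CPM in FKO, against 7.74, 6.84 and 6.42 CPM in f/f (log2 fold change -1.53, edgeR adjusted p = 0.00472). Tbk1, the kinase that phosphorylates Optn and p62, rose to 71.1 and 72.3 CPM in FKO, against 45.1, 43.1 and 41.1 CPM in f/f (log2 fold change 0.73, edgeR adjusted p = 0.00924). Usp15, a deubiquitinase that opposes Parkin, was also higher (0.64, edgeR adjusted p = 0.0305). Bcl2, Plekhm1 and Park2 were called in all 15 alternatives. The Tbk1 and Usp15 calls ended without FKO replicate 1 (edgeR adjusted p = 0.0808 and 0.221) and without FKO replicate 2 (0.0882 and 0.117), and that of Usp15 also without f/f replicate 2 or 3 (0.0717 and 0.05003). The Usp15 call ended as well with upper-quartile factors (edgeR adjusted p = 0.0518), with library size alone (0.0778) and on both FPKM scales (limma, 0.0976 and 0.109). Without FKO replicate 1 and without FKO replicate 2 the calls among the 55 genes dropped to 1 higher and 2 lower in each case.

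How many members were called depended on the scaling and on the FKO libraries, so the counts under each alternative are given together. RLE factors (the median-ratio scaling of DESeq2), no filter, a stricter filter and limma-voom each called the same 7 members higher and none lower. DESeq2 called those 7 and also Atg14, Atg5, Atg9a, Map1lc3b and Bnip3l higher and Ulk2 lower. Upper-quartile factors called 4 higher and 2 lower, Ulk2 and Uvrag. Library size alone called 2 higher, Sqstm1 and Optn, and 4 lower, Ulk2, Uvrag, Wipi1 and Map1lc3a. The FPKM scales called those 4 lower and Sqstm1, Optn and Tax1bp1 higher. Without FKO replicate 1 just Sqstm1 was called, and without FKO replicate 2 none was, while calls over all genes dropped to 909 and 1022. Leaving out an f/f library gave 7 or 8 higher, of which 5 to 7 were among the 7 reported.

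**Figure D5:**
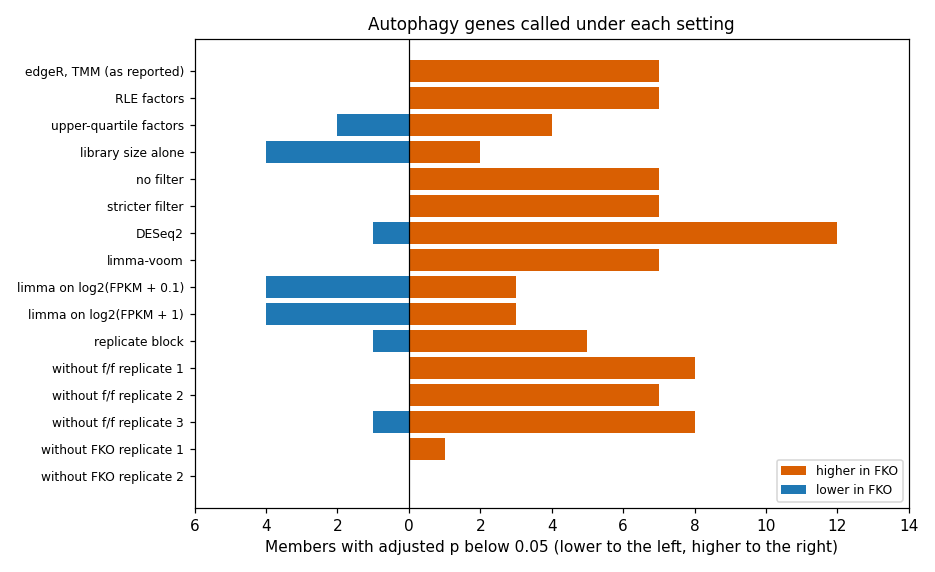
Bars give the number of the 38 members with an adjusted p below 0.05 under each setting, higher in FKO to the right of 0 and lower to the left. The setting reported in the text has 7 to the right and 0 to the left, and the range to the right runs from 0 to 12.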

How the data were processed

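Libraries of poly-A RNA (Illumina TruSeq kit) were read on a HiSeq4000 instrument, per the labels' protocols. Groups and replicate numbers came from the sample titles, and table columns were matched through the sample descriptions. The submitters' processing notes list the build mm10 and the tools StringTie 1.3.4d, HISAT2 2.1.0, HISAT and Bowtie2 without saying what each did. The estimated counts the authors deposited are given per RefSeq transcript as whole numbers that are not scaled between libraries, per the file headers. The deposited FPKM values are relative to transcript length and library size, as named in the headers. All 36779 rows name a gene, and 0 sample columns were left unused.

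Counts were summed per gene identifier (24531 genes). Library totals were 43580154 to 57016997, so 3 counts, the limit that a count of 0 allows, are 0.0526 to 0.0688 CPM, for counting error only. Genes were tested with edgeR 4.0.16 in R 4.3.3 (quasi-likelihood test, TMM factors, filterByExpr, genotype as the sole term) on 14492 genes, with Benjamini-Hochberg adjustment over all of them at 0.05. The TMM factors were 0.900 and 0.922 in FKO and 1.035, 1.036 and 1.123 in f/f, and the biological coefficient of variation was 23.0%. SE is the size of the log2 fold change over the square root of F. Transcript use was tested with diffSpliceDGE in 3997 genes. Both tests were tried on simulated data. Alternatives were RLE and upper-quartile factors, library size alone, no filter, a stricter filter (10 counts in each group mean and 1 CPM), DESeq2 1.42.0, limma-voom and limma 3.58.1 on log2(FPKM + 0.1) and log2(FPKM + 1), the replicate number as a block, and each library left out.

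The members and gene lists were chosen with earlier results of these data known, so lists are described by counts and medians with no test. Values are printed per library for members called or with the smallest p of their step, and up to 3 genes per related list with the smallest p are named. Genes or pairs outside this rule are marked where they appear. Further members are given per library where they form a pair with one of these. Coordinates are the table's, 1-based, on mm10, and promoter windows are those of RefSeq on GRCm38.p6. Libraries of 1 group differed beyond sampling noise (median chi-square per gene 3.52 to 15.5, noise 0.455), and none was treated as a copy. The groups separated on the first principal component (67.2% of the variance).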

Additional observations from a re-analysis of the deposited data

How the results depend on the processing

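Over the 15 alternatives the direction of all 7 called genes was kept, and the number called changed. Members called higher and lower, 7 and 0 as reported, were 4 and 2 with upper-quartile factors, 2 and 4 with library size alone, 12 and 1 with DESeq2, and 3 and 4 on each FPKM scale. Cargo receptors called higher, 4 as reported, were 2 with library size alone. Conjugation enzymes called higher, 3 as reported, were 1 with upper-quartile factors and 0 with library size alone and on both FPKM scales. Related genes called higher, 14 as reported, were 9 with library size alone and with a pseudocount of 0.1, and 8 with a pseudocount of 1. Those called lower, 4 as reported, were 7 and 8 on the 2 FPKM scales. Over all genes 1730 were called higher and 1944 lower. With library size alone 1030 were higher, with a pseudocount of 0.1 1088 were higher and 2962 lower, and with a pseudocount of 1 1051 were higher. The all-gene median moved with the scaling in the same settings, as given in the report; the cause of each change was not tested. The sign of Atg4d turned to -0.016 with library size alone, and to -0.012 and -0.010 on the FPKM scales.

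Leaving out 1 library gave 0 to 8 members higher and 0 to 1 lower, 0 to 4 receptors, 0 to 3 conjugation enzymes, 1 to 13 related genes higher and 2 to 5 lower, 485 to 1690 genes higher and 424 to 1759 lower. In those that leave 1 FKO library, that library is assumed to vary like the f/f libraries. Medians relative to that of all genes are 0.022 for initiation, 0.089 for the lipid kinase, 0.53 for conjugation, 0.17 for Atg4, 0.11 for Atg8, 0.65 for the receptors and 0.18 for all members. With a pseudocount of 1 they were -0.054, -0.025, 0.40, 0.050, within the replicate spread for Atg8, 0.52 and 0.066. The lipid kinase median was 0.14 with no filter, 0.043 with the stricter filter, 0.075 with limma-voom and 0.058 with a pseudocount of 0.1. With no filter the conjugation median was 0.58, that of the receptors 0.70 and that of all members 0.24. That of all members was 0.14 with the stricter filter and 0.15 with a pseudocount of 0.1. Leaving out 1 library gave 0.065 to 0.11 for the lipid kinase, 0.48 to 0.59 for conjugation, -0.020 to 0.19 for Atg8, 0.62 to 0.72 for the receptors and 0.15 to 0.28 for all members. Transcript use was called in 0 to 1 members without 1 library, and in 99 genes with the stricter filter, where 227 were called as reported.

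The groups share replicate numbers 1 and 2. The deviations of same-numbered libraries correlated at 0.066 and -0.081. With 2 FKO libraries the deviations of each mirror those of the other. These values therefore cannot show whether same-numbered libraries share more than a number. With the replicate block 5 members were higher and 1 lower, 3 receptors and 1 conjugation enzyme were higher, 4 of the 7 called members kept the call, and 6 genes were called for transcript use. All 38 members passed the filter on low counts, and the number of FKO libraries, 2, limits the precision.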
